A study of Mus musculus with 9 samples.

Results

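The genes described here code for potassium, sodium, calcium, chloride and TRP channels, the membrane proteins that pass ions along their gradients. Members were taken by gene symbol, as single symbols that begin with Kcn, Cacn, Clcn or Clcnk, with Scn or Hcn and a digit, or with Trpa, Trpc, Trpm or Trpv and a digit. The rule gave 120 of 15096 genes with a single symbol on the array, on 142 of 23040 probes. It used no measured value. It also took 3 genes that code for no channel subunit, Trpc4ap, Kcnd3os and Kcnmb4os1, which were kept and are given apart. Probes whose number in the table is a multiple of 8 had low ratios across the whole array, and they were left out of the gene means and are described separately. Of the members, 108 had a probe at another number and entered the test, and 12 lay at multiples of 8 alone.

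RNA came from liver, kidney and whole brain of male SJL/J and C57BL/6J mice, 2 inbred laboratory strains, at 8 weeks of age. Each of the 9 two-colour arrays, 3 per tissue, set pooled RNA of 5 SJL/J mice against pooled RNA of 5 C57BL/6J mice, tissue by tissue. Within a tissue the 3 arrays repeated 1 pair of pools with the dyes always the same way round, so errors and p-values here describe the spread between arrays and not between mice. The channel 1 tissue label of the liver and kidney arrays reads brain, and the array titles were followed. Log2 ratios above 0 stand for more RNA in SJL/J than in C57BL/6J, a direction that is likely from the titles and the dyes but is not stated in the labels. Nnt, a mitochondrial transhydrogenase gene that carries a deletion in C57BL/6J, was above 0 on 9 of 9 arrays. Brain replicate 3 varied more than the other arrays (residual SD 0.30, against 0.17 to 0.22).

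Voltage-gated channels open when the membrane depolarises: sodium channels start the action potential, calcium channels turn it into calcium entry and transmitter release, and potassium channels end it. Inward rectifier and two-pore potassium channels set the resting potential, HCN channels carry the pacemaker current, and TRP channels answer to temperature, lipids, calcium stores and chemical stimuli. Most voltage-gated pores are best known from neurons, muscle and heart, whereas kidney and liver rely on inward rectifier, KCNQ and KCNE, ClC and some TRP channels for salt transport, endosome acidification and volume control.

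A gene was counted as passed when the strain ratio of a tissue differed from 0 at a Benjamini-Hochberg adjusted p under 0.05 over all 13407 genes tested with limma. In liver 27 of 108 members passed (25.0%), against 22.4% of all genes, 9 of them higher (10.5% of all genes) and 18 lower (11.9% of all genes) in the SJL/J pool. In kidney 19 passed (17.59%, against 22.1% of all genes), 10 higher (14.1% of all genes) and 9 lower (8.05% of all genes). In brain 13 passed (12.04%, against 14.3% of all genes), 8 higher (7.73% of all genes) and 5 lower (6.62% of all genes). These shares lay near those of all genes. The median log2 ratio of the members was 0.01 in liver, 0.01 in kidney and 0.02 in brain, beside -0.0010, 0.06 and 0.03 over all genes tested. In all, 50 members passed in at least 1 tissue: 43 in 1 tissue, 5 in 2 tissues and 2 in all 3. The last 2 had 1 sign throughout, as did 1.42% of all genes tested. For the other joint counts the share of all genes was not taken, so they describe the members alone. A ratio of 2-fold or more was seen among passed members for 5 genes in liver (Cacna1e, Kcnd3, Kcnj12, Kcnk3 and Scn1a, all lower). In kidney 0 and in brain 3 reached it (Cacna1f and Kcnj2, higher, and Kcnn3, lower). Of all 13407 genes tested, 408 passed at that size in liver, 119 in kidney and 115 in brain. Kcnd3, Kcnj12 and Kcnk3 lie in a stretch of probes with low liver ratios, described below.

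The liver split changed when medians by probe number were removed. With medians of lines of 24 consecutive probe numbers and of columns (places within a line) removed, liver had 12 members higher and 9 lower. With that setting 19.1% of all genes were called in liver. In kidney, 10 were higher and 15 lower when each array was centred on the named probes, with 21.6% of all genes called. Of the calls, 8 in liver, 8 in kidney and 0 in brain passed under every alternative run. This was counted for the members only, so it cannot be set against all genes. From the brain arrays alone, 1 of these alternatives, 1 member (Cacna1f) was called, against 0.589% of all genes. A strain difference in a tissue pool can come from fewer cells of a type or from less RNA per cell, which cannot be told apart here, and a dye effect of a probe is added to each ratio. Spot intensities were not used here, so it was not tested whether transcripts best known from neurons lay above background in liver or kidney.

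**Figure D1:**
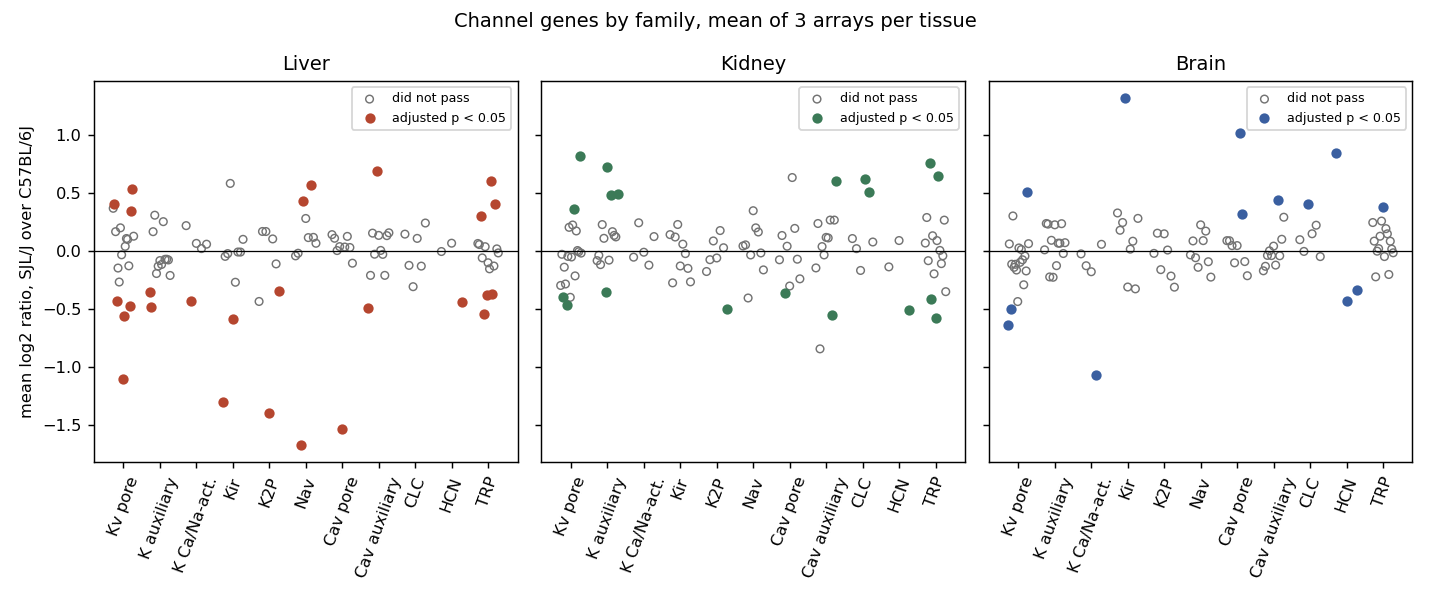
Mean log2 ratio (SJL/J over C57BL/6J, mean of 3 arrays) of each tested channel gene by family, with a panel each for liver, kidney and brain. Filled points passed the limma test and open points did not; in liver a group of 5 genes lies below -1 (Scn1a, Cacna1e, Kcnk3, Kcnj12 and Kcnd3).

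Scn1a and Cacna1e had the 2 lowest liver ratios of the tested members. Kcns1 and Hcn4 passed in all 3 tissues with 1 sign, as did 1.42% of all genes tested. The RefSeq promoters of these 4 members are shown. Each runs from 250 bases before to 50 bases after the start of the gene in GRCm38.p6, written 5′ to 3′ along the gene's own strand. This is the C57BL/6J reference, so a sequence difference between the strains is not in it. Capitals mark the GC box GGGCGG on either strand.
Scn1a, chr2:66440788-66441087, minus strand: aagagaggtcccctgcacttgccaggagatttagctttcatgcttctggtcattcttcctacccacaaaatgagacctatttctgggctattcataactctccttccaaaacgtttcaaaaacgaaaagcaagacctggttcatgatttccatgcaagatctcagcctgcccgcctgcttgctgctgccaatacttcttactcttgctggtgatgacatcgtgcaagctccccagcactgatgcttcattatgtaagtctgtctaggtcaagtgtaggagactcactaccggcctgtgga
Cacna1e, chr1:154725871-154726170, minus strand: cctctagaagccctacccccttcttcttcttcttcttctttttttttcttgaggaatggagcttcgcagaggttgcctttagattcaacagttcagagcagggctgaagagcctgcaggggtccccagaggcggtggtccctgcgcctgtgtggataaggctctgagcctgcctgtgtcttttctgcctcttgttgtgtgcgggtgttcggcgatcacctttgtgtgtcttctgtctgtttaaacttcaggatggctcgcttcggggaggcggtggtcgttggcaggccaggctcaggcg
Kcns1, chr2:164171064-164171363, minus strand: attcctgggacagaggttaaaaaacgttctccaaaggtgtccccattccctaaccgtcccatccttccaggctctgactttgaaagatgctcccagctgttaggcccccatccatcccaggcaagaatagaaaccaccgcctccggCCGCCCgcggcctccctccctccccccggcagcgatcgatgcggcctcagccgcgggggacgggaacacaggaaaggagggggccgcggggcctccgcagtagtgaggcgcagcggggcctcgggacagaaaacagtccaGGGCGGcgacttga
Hcn4, chr9:58822699-58822998, plus strand: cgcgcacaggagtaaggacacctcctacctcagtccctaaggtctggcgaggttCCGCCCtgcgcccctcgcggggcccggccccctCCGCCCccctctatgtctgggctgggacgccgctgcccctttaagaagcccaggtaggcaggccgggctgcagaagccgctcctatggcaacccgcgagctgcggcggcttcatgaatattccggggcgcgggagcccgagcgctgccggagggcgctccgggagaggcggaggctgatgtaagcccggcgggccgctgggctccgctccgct

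On either strand, the letters GGGCGG occur 2 times in the window of Kcns1 and 2 times in that of Hcn4, and 0 times in those of Scn1a and Cacna1e. These windows hold 22 and 31 CG dinucleotides in Kcns1 and Hcn4, against 5 and 11 in Scn1a and Cacna1e. GGGCGG was found on either strand in 42.75% of the 138 promoters of 99 channel genes in the table and in 35.66% of all 32851 promoters. The TATA box letters TATAAA were found in 7.97% of channel promoters and 13.62% of all. CAGCACC, part of the element bound by the neuronal repressor REST, was found in 7.25% and 7.14%. Neither TATAAA nor CAGCACC is in the 4 windows shown. These counts are descriptions of the letters in the window and say nothing of factor binding.

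Sodium channel alpha subunits form the voltage-gated pore of the action potential. In liver the lowest ratio of all tested members was that of Scn1a, the alpha subunit that carries the sodium current of many inhibitory neurons. Scn1a had -1.78, -1.78 and -1.46 on the liver arrays, -0.28, -0.47 and -0.46 on the kidney arrays and 0.38, 0.01 and -0.56 on the brain arrays. All liver values lay below all values of kidney and brain. Its mean was -1.68 ± 0.18 in liver (SD, n = 3 arrays, limma adjusted p = 1.75e-05), and it did not pass in kidney (-0.41 ± 0.10, adjusted p = 0.0707) or brain (-0.06 ± 0.47, adjusted p = 0.827). The liver ratio was lower than that of brain by a tested difference of -1.62 (SE 0.21, limma adjusted p = 0.000705) and than that of kidney by -1.27 (SE 0.21, adjusted p = 0.00272). Scn9a, the pore of pain-sensing neurons, lies next to Scn1a on chromosome 2 with 0 protein-coding genes between them, and had 0.07 ± 0.10 in liver, where it did not pass (adjusted p = 0.677).

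Scn2a, the alpha subunit of the axon initial segment, went the other way in liver, with 0.36, 0.27 and 0.67 (mean 0.43 ± 0.21, SD, n = 3, limma adjusted p = 0.0243). Its kidney and brain means were -0.03 ± 0.30 and -0.14 ± 0.10, and neither passed. Scn3b, a beta subunit that tunes gating and surface level, had 0.89, 0.32 and 0.50 in liver (0.57 ± 0.29, adjusted p = 0.00839) and 0.17 in both kidney and brain. Both calls ended when the median of the 10 nearest probes was removed (0.26 for Scn2a and 0.42 for Scn3b), and without liver replicate 1 they did not pass either (0.47 and 0.41). Without liver replicate 3 the Scn2a ratio was 0.32 and did not pass. The beta subunit gene Scn2b had 0.28 ± 0.26 in liver, 0.35 ± 0.16 in kidney and 0.23 ± 0.21 in brain, and did not pass. Of the 9 sodium channel genes 2 were higher and 1 lower in liver (33.33%, against 22.4% of all genes). In kidney and in brain 0 passed, against 22.1% and 14.3% of all genes, and the brain median over the 9 was -0.03.

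Among calcium channel pores, the lowest liver ratio was that of Cacna1e, which carries the R-type current of neurons and endocrine cells. Cacna1e had -1.34, -1.69 and -1.60 on the liver arrays, against -0.24, -0.09 and -0.58 in kidney and 0.00, -0.09 and 0.23 in brain. The liver arrays again lay below all 6 others. The mean was -1.54 ± 0.19 in liver (SD, n = 3, limma adjusted p = 4.77e-06), -0.30 ± 0.25 in kidney and 0.05 ± 0.17 in brain, and only the liver ratio passed. Its difference was -1.59 for liver minus brain (SE 0.16, limma adjusted p = 0.000126) and -1.24 for liver minus kidney (SE 0.16, adjusted p = 0.000758). The calls of Scn1a and Cacna1e in liver, and their differences from kidney and from brain, passed under every alternative that was run.

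In brain the calcium channel pore with the highest ratio was Cacna1f, best known from photoreceptor synapses of the retina. It had 0.08, -0.05 and 0.08 in liver, 0.17, 1.67 and 0.07 in kidney and 1.08, 1.17 and 0.81 in brain (brain mean 1.02 ± 0.19, SD, n = 3, limma adjusted p = 0.0175). One kidney array stood above the other arrays of that tissue, and the kidney mean of 0.64 ± 0.89 did not pass (adjusted p = 0.0743). The brain call was lost without brain replicate 1 (0.99) and without replicate 2 (0.94). Cacna1g, a T-type pore of thalamic and other neurons, had 0.23, 0.26 and 0.47 in brain (0.32 ± 0.13, adjusted p = 0.0374). It was not called without any 1 of the 3 brain arrays (0.25 to 0.37). In kidney Cacna1c, the L-type pore of heart and vascular smooth muscle, had -0.20, -0.43 and -0.47 (-0.37 ± 0.14, limma adjusted p = 0.0257), a call lost without any 1 of the 3 kidney arrays. Cacna1a and Cacna1b, the P/Q-type and N-type pores of nerve terminals, had 0.14 ± 0.23 and 0.11 ± 0.33 in liver, -0.07 ± 0.06 and 0.14 ± 0.20 in kidney, and 0.09 ± 0.07 and 0.09 ± 0.10 in brain, and none of these passed. The T-type genes Cacna1h and Cacna1i did not pass either (0.03 and -0.10 in liver, -0.07 and -0.24 in kidney, -0.09 and -0.21 in brain). Of the 9 pore genes 1 was lower in liver, 1 lower in kidney and 2 higher in brain. The shares passed were 11.11%, 11.11% and 22.22%, against 22.4%, 22.1% and 14.3% of all genes.

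Auxiliary subunits carry calcium channel pores to the membrane and tune them. Cacnb2, a cytoplasmic beta subunit best known from heart, had the highest liver ratio of all tested members, with 0.46, 0.84 and 0.78 (0.70 ± 0.21, SD, n = 3, limma adjusted p = 0.000688). Its kidney values of 0.05, -0.00 and -0.15 and its brain values of 0.12, -0.11 and -0.13 lay below all liver values. The difference of liver from brain was 0.73 (SE 0.14, limma adjusted p = 0.00828) and from kidney 0.73 (SE 0.14, adjusted p = 0.00674), and both passed under every alternative run. Cacna2d1, an extracellular subunit and a target of gabapentin, had -0.53, -0.41 and -0.55 in liver (-0.50 ± 0.08, adjusted p = 0.00541). It lay in a line of probes with a liver median of -0.27, and its ratio was -0.22 with line and column medians removed and -0.13 with the median of the 10 nearest probes removed, neither of which passed.

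The gamma subunits include partners of AMPA-type glutamate receptors. Cacng2 (stargazin), one such partner, had -0.03 ± 0.15 in liver, 0.27 ± 0.13 in kidney and 0.37, 0.52 and 0.44 in brain (0.44 ± 0.08, SD, n = 3, limma adjusted p = 0.0113), and the liver minus brain difference was -0.47 (adjusted p = 0.0411). Without brain replicate 2 its brain ratio was 0.41 and did not pass. Cacng3, of the same group, had -0.21 ± 0.20 in liver, -0.55, -0.59 and -0.52 in kidney (-0.55 ± 0.04, limma adjusted p = 0.00436) and -0.04 ± 0.20 in brain. Cacng6 had 0.16 ± 0.21 in liver, 0.64, 0.66 and 0.53 in kidney (0.61 ± 0.07, limma adjusted p = 0.00399) and 0.29 ± 0.24 in brain. The 2 kidney calls passed under every alternative run. Cacna2d3, another extracellular subunit, had 0.02, 0.30 and -2.86 in kidney, where 1 array set the mean of -0.85 ± 1.75 and the gene did not pass (adjusted p = 0.189). Cacnb4, a beta subunit of cerebellum, did not pass in any tissue (0.14 in liver, 0.12 in kidney and 0.04 in brain). Of 11 auxiliary genes 1 was higher and 1 lower in liver, 1 and 1 in kidney, and 1 and 0 in brain. That is 18.18%, 18.18% and 9.09% passed, beside 22.4%, 22.1% and 14.3% of all genes.

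Voltage-gated potassium channel genes gave 3 higher and 4 lower calls in liver among 18 tested (38.89%, against 22.4% of all genes). In kidney 2 and 2 passed (22.22%, against 22.1%) and in brain 1 and 2 (16.67%, against 14.3%). Medians were 0.07 in liver, -0.04 in kidney and -0.11 in brain. Kcns1, a silent subunit that modifies other voltage-gated potassium channels, was higher in all 3 tissues. It had 0.51, 0.63 and 0.49 in liver (0.54 ± 0.08, SD, n = 3, limma adjusted p = 0.0228), 1.35, 0.76 and 0.36 in kidney (0.82 ± 0.50, adjusted p = 0.0037) and 0.38, 0.52 and 0.63 in brain (0.51 ± 0.13, adjusted p = 0.0413). All 9 arrays were above 0, with kidney replicate 1 the highest. Of all genes tested, 1.42% passed in the 3 tissues with 1 sign, and Kcns1 and Hcn4 were the members among them. The kidney call of Kcns1 passed under every alternative run, while the liver and brain calls ended when any 1 array of their tissue was left out (0.50 to 0.57 in liver, 0.45 to 0.58 in brain).

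Kcna1, Kcna2 and Kcna3 code for delayed rectifier subunits, the first 2 of axons and the third also of T lymphocytes. Kcna1 had 0.11, 0.57 and 0.42 in liver, -0.31, -0.16 and -0.42 in kidney and -0.22, -0.60 and -1.10 in brain. Each liver value lay above all kidney and brain values. It passed in brain (-0.64 ± 0.44, SD, n = 3, limma adjusted p = 0.0174), and the difference was 1.01 for liver minus brain (SE 0.21, adjusted p = 0.0115) and 0.67 for liver minus kidney (SE 0.21, adjusted p = 0.0479). The brain call was lost without brain replicate 3 (-0.41) and without replicate 2 (-0.66). Its liver and kidney ratios did not pass (limma adjusted p = 0.0953 and 0.169). The liver minus kidney difference of Kcna1 passed under 7 of 15 alternatives and was lost without any 1 kidney or liver array. Kcna3 had -0.03, 0.41 and 0.13 in liver, -0.39, -0.43 and -0.36 in kidney (-0.39 ± 0.04, adjusted p = 0.0152) and -0.45, -0.46 and -0.59 in brain (-0.50 ± 0.08, adjusted p = 0.00791). Its difference was 0.67 for liver minus brain (SE 0.14, limma adjusted p = 0.0104) and 0.56 for liver minus kidney (SE 0.14, adjusted p = 0.018), and the kidney call ended when any 1 kidney array was left out (-0.37 to -0.41). Kcna2, the genomic neighbour of Kcna3 on chromosome 3, passed in liver alone, with 0.34, 0.32 and 0.56 (0.41 ± 0.13, adjusted p = 0.0149), and was not called without liver replicate 1 or 3.

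Kcnd3, an A-type pore of heart and brain, had -1.42, -0.68 and -1.22 in liver (-1.11 ± 0.39, SD, n = 3, limma adjusted p = 0.000202), -0.40 ± 0.20 in kidney and -0.44 ± 0.12 in brain. The kidney and brain ratios were just outside the threshold (adjusted p = 0.0528 and 0.0508). Its liver value was smaller once neighbouring probes were taken into account (-0.41). Kcnd2, the A-type pore of dendrites, did not pass (-0.03 in liver, 0.21 in kidney and -0.16 in brain). Kcnq1, the pore that joins Kcne1 in heart and epithelia, had -0.33, -0.75 and -0.35 in liver (-0.48 ± 0.23, adjusted p = 0.00736), and its kidney and brain means of 0.01 and -0.04 did not pass. Without liver replicate 2 the Kcnq1 ratio was -0.34 and did not pass, and its liver minus kidney difference of -0.48 passed under 5 of 15 alternatives, with -0.01 when its probe at a multiple of 8 was kept. Kcnq5, of the M-current, had 0.48, 0.43 and 0.13 in liver (0.35 ± 0.19, limma adjusted p = 0.0249), and was not called without liver replicate 1 (0.28) or 2 (0.31).

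Kcnh1, an ether-a-go-go channel of brain, had -1.27, -0.03 and -0.38 in liver (-0.56 ± 0.64, SD, n = 3, limma adjusted p = 0.0418). Liver replicate 1 was the lowest, and the ratio was -0.20 without it and -0.65 without replicate 3, neither of which passed. Kcnh3, of the same family, had 0.39, 0.39 and 0.31 in kidney (0.36 ± 0.05, adjusted p = 0.0218), a call that ended without any 1 kidney array. Kcnc2, a pore of fast-spiking neurons, had -0.40, -0.47 and -0.52 in kidney (-0.47 ± 0.06, limma adjusted p = 0.0193), with the same loss of the call. Its relative Kcnc1 passed in no tissue (-0.15 in liver, -0.28 in kidney and 0.30 in brain), but the difference of kidney from brain passed (-0.59, SE 0.14, adjusted p = 0.044), under 6 of 15 alternatives. Kcna7 was lower in liver too (-0.43 ± 0.22, adjusted p = 0.0107), though not once line and column medians were removed, when its ratio was 0.05.

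Auxiliary potassium channel subunits had 0 higher and 2 lower calls of 13 in liver (15.38%, against 22.4% of all genes). In kidney 3 were higher and 1 lower (30.77%, against 22.1%), and in brain 0 passed, against 14.3% of all genes. Kcne4, a single-span partner that dampens KCNQ1 currents, had -0.11, -0.03 and -0.11 in liver, 0.65, 0.92 and 0.61 in kidney (0.73 ± 0.17, SD, n = 3, limma adjusted p = 0.00246) and 0.13, -0.04 and 0.59 in brain. The kidney arrays were the highest of the 9, and the liver minus kidney difference was -0.81 (SE 0.17, adjusted p = 0.00899). Kcnmb4, the brain beta subunit of the large-conductance calcium-activated channel, had -0.21 ± 0.11 in liver, 0.36, 0.47 and 0.65 in kidney (0.49 ± 0.15, limma adjusted p = 0.017) and 0.07 ± 0.35 in brain. Kcnip2, a calcium sensor that binds A-type pores, had 0.66, 0.48 and 0.32 in kidney (0.49 ± 0.17, adjusted p = 0.0234), and Kcne2 had -0.26, -0.36 and -0.45 (-0.35 ± 0.09, adjusted p = 0.041). The kidney calls of Kcnmb4, Kcnip2 and Kcne2 ended without any 1 kidney array, and those of Kcnip2 (0.24) and Kcne2 (-0.34) also with line and column medians removed. The call of Kcnip2 was lost too with the median of the 10 nearest probes removed (0.39). In liver Kcnab2, a cytoplasmic beta subunit, had -0.50, -0.45 and -0.49 (-0.48 ± 0.03, limma adjusted p = 0.0287), in a line of probes with a median of -0.26, and Kcnab1 had -0.35 ± 0.25 (adjusted p = 0.047). Neither passed with line and column medians removed. Kcne1, the partner of Kcnq1, passed in no tissue (0.31 ± 0.30 in liver, 0.23 ± 0.05 in kidney and -0.22 ± 0.12 in brain), while its liver minus brain difference of 0.53 did (SE 0.16, adjusted p = 0.0485), under 6 of 15 alternatives with values of 0.37 to 0.81.

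Calcium-activated potassium channels of small conductance shape the pause after an action potential. Kcnn3, which had the lowest brain ratio of all tested members, had 0.01, -0.08 and 0.14 in liver, -0.08, -0.13 and -0.15 in kidney and -1.20, -1.36 and -0.64 in brain (-1.07 ± 0.38, SD, n = 3, limma adjusted p = 0.000593). The brain arrays lay below all others. The difference was 1.09 for liver minus brain (SE 0.17, limma adjusted p = 0.00269) and 0.95 for kidney minus brain (SE 0.17, adjusted p = 0.0156). On the brain arrays alone, with no spread borrowed from the other tissues, the brain ratio had an adjusted p of 0.0557 (limma). Kcnn1 had -0.77, -0.01 and -0.53 in liver (-0.44 ± 0.39, adjusted p = 0.0382), and -0.27 without liver replicate 1 and -0.39 without replicate 3, neither of which passed. Kcnn2, described in liver and brain, did not pass (0.07 in liver, -0.01 in kidney and -0.18 in brain). The large-conductance pore Kcnma1 had 0.22 ± 0.13 in liver, -0.05 ± 0.17 in kidney and -0.02 ± 0.11 in brain, and the sperm channel Kcnu1 had 0.06, 0.13 and 0.06, with no call.

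Inward rectifiers let potassium in more readily than out and hold the resting potential. Kcnj2, a classical strong inward rectifier with the highest brain ratio of the tested members, had 0.55, 0.83 and 0.38 in liver, -0.11, -0.15 and 0.95 in kidney and 0.63, 2.29 and 1.04 in brain (1.32 ± 0.87, SD, n = 3, limma adjusted p = 0.0114). Brain replicate 2 was far above the others, and without it the ratio was 0.83 and did not pass (adjusted p = 0.0812). The liver ratio of 0.59 ± 0.23 did not pass (adjusted p = 0.156), and no difference between tissues did. Kcnj16, a renal inward rectifier and the neighbour of Kcnj2 on chromosome 11, had -0.02 ± 0.18 in liver, 0.12 ± 0.09 in kidney and 0.25 ± 0.33 in brain, with no call. Kcnj12, a close relative of Kcnj2, went lower in liver, with -1.87, -0.78 and -1.27 (-1.31 ± 0.55, limma adjusted p = 0.000327), against -0.01, 0.03 and 0.40 in kidney and 0.34, 0.52 and 0.14 in brain. The liver arrays lay below all 6 others, with a liver minus brain difference of -1.64 (SE 0.24, adjusted p = 0.00157) and a liver minus kidney difference of -1.45 (SE 0.24, adjusted p = 0.00279). Kcnj3, a subunit of the channel opened by G proteins, had -0.69, -0.46 and -0.61 in liver (-0.59 ± 0.11, limma adjusted p = 0.00581), but -0.29 and no call with line and column medians removed. The other inward rectifiers named for a role here did not pass: Kcnj6 of brain (-0.01 in liver, -0.02 in kidney and 0.09 in brain), Kcnj8 of blood vessels (-0.01, -0.15 and -0.33) and Kcnj15 of kidney (-0.05, -0.27 and 0.18).

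K2P channels carry the potassium leak of resting cells. Kcnk3, an acid-sensitive leak channel, had -1.64, -1.30 and -1.25 in liver (-1.40 ± 0.21, SD, n = 3, limma adjusted p = 3.74e-06), against -0.08, -0.21 and 0.11 in kidney and 0.18, 0.15 and 0.11 in brain. The liver arrays were all far below the others, with differences of -1.55 from brain (SE 0.14, limma adjusted p = 6.18e-05) and -1.34 from kidney (SE 0.14, adjusted p = 0.000172), the second of which was lost once the median of the 10 nearest probes was removed (-0.48). Kcnk7 had -0.47, -0.36 and -0.20 in liver (-0.35 ± 0.13, adjusted p = 0.0392), -0.25, -0.53 and -0.72 in kidney (-0.50 ± 0.24, adjusted p = 0.00902) and -0.31 ± 0.15 in brain (adjusted p = 0.077). All 9 arrays of Kcnk7 were below 0, though the liver call was lost without any 1 liver array and the kidney call without kidney replicate 2 (-0.48) or 3 (-0.39). Kcnk5, an alkaline-sensitive channel of kidney tubules, did not pass (-0.11 ± 0.30 in liver, 0.03 ± 0.29 in kidney and -0.22 ± 0.50 in brain). Kcnk4 and Kcnk10, opened by stretch and lipids, did not pass either (0.11 and 0.17 in liver, 0.18 and -0.07 in kidney, 0.01 and 0.16 in brain).

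Kcnj12, Kcnd3 and Kcnk3 lay in a stretch of probe numbers with low liver ratios. Their probes are numbers 529, 530 and 533 of the table. Of the 8 probes from 529 to 537 that are not at multiples of 8, 7 lay below -0.5 in liver, with a median of -1.20, and of the 10 such probes from 517 to 528, 0 did (median -0.10). On the other side, from 538 to 545, 3 of 7 lay below -0.5 (median -0.42). The probes between them belong to Atp6v1a (531), a proton pump subunit, and Nckap1 (532), an actin regulator, which had -1.16 and -1.23 in liver. In kidney the values of these 5 probes ranged from -0.40 to 0.21 and in brain from -0.70 to 0.33. With the median of the 10 nearest probes removed on each array, an alternative chosen after seeing the data, the liver ratio was -1.05 for Kcnj12 (limma adjusted p = 0.00347), -0.41 for Kcnd3 (adjusted p = 0.0452) and -0.39 for Kcnk3 (adjusted p = 0.022). The same step left Scn1a at -1.47 and Cacna1e at -1.26, whose 10 nearest probes had liver medians of -0.16 and -0.31. With that step the differences of Kcnd3 between tissues were lost (-0.01 for liver minus brain and -0.14 for liver minus kidney), and that of Kcnk3 was -0.48 for liver minus kidney, which did not pass (limma adjusted p = 0.0502), and -0.79 for liver minus brain, which did (adjusted p = 0.00646). What lowered the liver values over this stretch of probes was not tested.

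**Figure D2:**
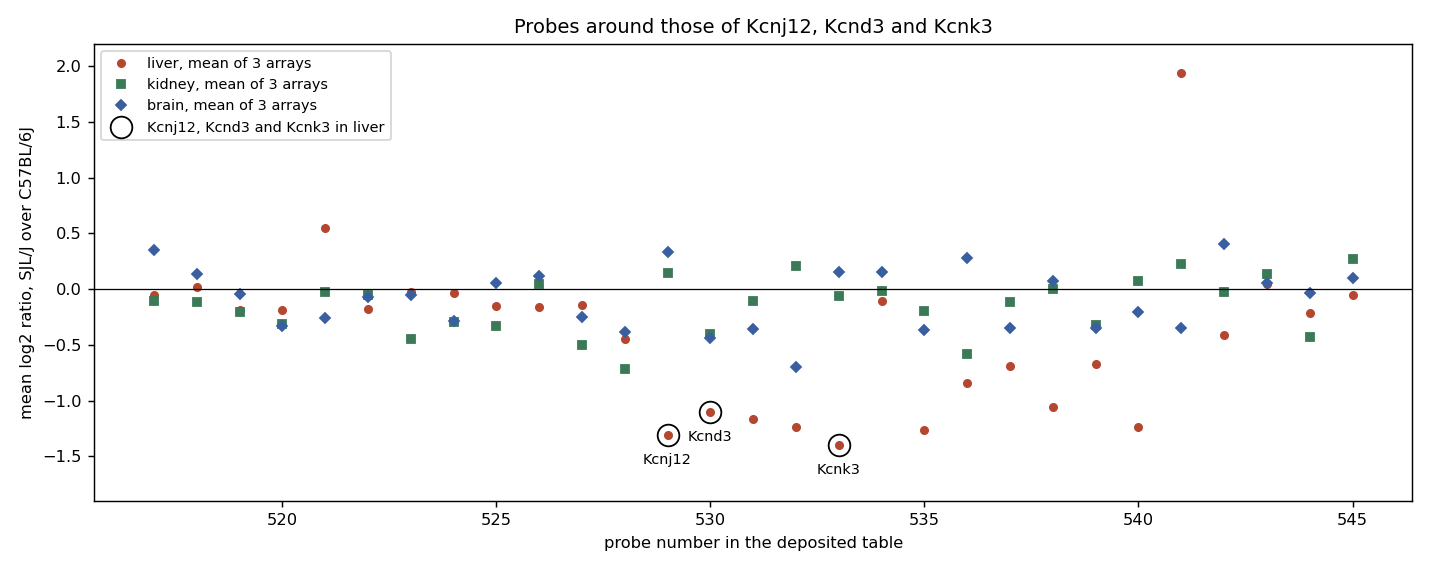
Mean log2 ratio (SJL/J over C57BL/6J, 3 arrays) of consecutive probes against probe number, in liver, kidney and brain, with the liver values of Kcnj12, Kcnd3 and Kcnk3 circled. Liver values drop below -1 at probes 529 to 533, at genes with and without a channel function alike, while the probes from 517 to 528 had a liver median of -0.10.

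HCN channels open on hyperpolarisation and carry the pacemaker current. Hcn4, the main isoform of the sinoatrial node, was lower in all 3 tissues. It had -0.24, -0.45 and -0.62 in liver (-0.44 ± 0.19, SD, n = 3, limma adjusted p = 0.00988), -0.46, -0.54 and -0.55 in kidney (-0.51 ± 0.05, adjusted p = 0.00553) and -0.25, -0.22 and -0.54 in brain (-0.34 ± 0.18, adjusted p = 0.0458). All 9 arrays were below 0 and the tissues overlapped. The kidney call passed under every alternative run. The liver call ended without liver replicate 2 (-0.43) or 3 (-0.35), and the brain call without any 1 brain array (-0.24 to -0.39). Hcn2, of thalamus and heart, had -0.00 ± 0.23 in liver, -0.14 ± 0.33 in kidney and 1.21, 1.44 and -0.10 in brain (0.85 ± 0.83, limma adjusted p = 0.0372), so brain replicate 3 was the only one of the 3 that was not high. Its brain ratio was 1.33 without replicate 3 (adjusted p = 0.000528), and 0.67 without replicate 1 and 0.56 without replicate 2, which did not pass. Hcn3 had 0.07 ± 0.12 in liver, 0.09 ± 0.04 in kidney and -0.33, -0.51 and -0.45 in brain (-0.43 ± 0.09, limma adjusted p = 0.0092), with differences of 0.50 for liver minus brain (SE 0.12, adjusted p = 0.0231) and 0.52 for kidney minus brain (SE 0.12, adjusted p = 0.0371). Without brain replicate 2 the brain ratio of Hcn3 was -0.39 and did not pass.

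ClC proteins are chloride channels of the cell surface or chloride and proton exchangers of endosomes and lysosomes. Clcn5, the endosomal exchanger of the proximal tubule, had 0.11 ± 0.23 in liver, 0.68, 0.34 and 0.83 in kidney (0.62 ± 0.25, SD, n = 3, limma adjusted p = 0.0048) and 0.15 ± 0.14 in brain. This is its probe away from multiples of 8. Its other probe had the opposite sign, and with both averaged the kidney ratio was -0.51. Clcn5 was also not called in kidney with the median of the 10 nearest probes removed (0.30). Clcn6, of late endosomes, had -0.13 ± 0.07 in liver, 0.50, 0.15 and 0.87 in kidney (0.51 ± 0.36, limma adjusted p = 0.0147) and 0.22 ± 0.15 in brain. The liver minus kidney difference of Clcn6 was -0.64 (SE 0.17, adjusted p = 0.029), and the kidney call was lost without kidney replicate 1 (0.51) or 3 (0.33). Clcn4 had -0.31 ± 0.27 in liver, -0.17 ± 0.28 in kidney and 0.43, 0.39 and 0.39 in brain (0.41 ± 0.02, limma adjusted p = 0.0471), with a liver minus brain difference of -0.71 (SE 0.17, adjusted p = 0.0227). The brain call of Clcn4 was lost without any 1 brain array. Clcn7, the lysosomal exchanger, did not pass (0.24 ± 0.17 in liver, 0.08 ± 0.13 in kidney and -0.05 ± 0.10 in brain), nor did Clcn2 (-0.12, 0.02 and -0.00) or Clcn1 of muscle (0.15, 0.11 and 0.10).

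TRP channels gave 3 higher and 3 lower calls of 15 in liver, 2 and 2 in kidney, and 1 and 0 in brain. Of all genes 22.4% passed in liver, 22.1% in kidney and 14.3% in brain. The share of TRP genes that passed was above that of all genes in liver and kidney and below it in brain. Trpm2, a calcium-permeable channel opened by ADP-ribose under oxidative stress, was the 1 member with calls of opposite sign (2.06% of all genes tested). It had -0.14, -0.11 and -0.05 in liver, -0.48, -0.59 and -0.66 in kidney (-0.58 ± 0.09, SD, n = 3, limma adjusted p = 0.0021) and 0.56, 0.22 and 0.37 in brain (0.38 ± 0.17, adjusted p = 0.0192). The 3 tissues did not overlap: kidney was lowest, liver between and brain highest. The kidney minus brain difference was -0.96 (SE 0.13, limma adjusted p = 0.00396) and passed under every alternative run. The brain ratio was 0.30 without brain replicate 1 and did not pass.

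Trpm5, the calcium-activated channel of taste cells, was higher in liver, with 0.77, 0.56 and 0.50 (0.61 ± 0.14, SD, n = 3, limma adjusted p = 0.00376), and in kidney, with 0.64, 0.98 and 0.32 (0.65 ± 0.33, adjusted p = 0.00382). Its brain values of 0.17, 0.22 and 0.20 lay below all liver and kidney values, although neither difference from brain passed (adjusted p = 0.127 for liver and 0.13 for kidney). Trpm5 lies beside Kcnq1 on chromosome 7 with 0 protein-coding genes between them, and in liver the 2 ratios had opposite signs (0.61 and -0.48). Trpc6, a diacylglycerol-gated channel of podocytes and smooth muscle, was lower in liver, with -0.68, -0.43 and -0.52 (-0.54 ± 0.13, limma adjusted p = 0.00136), and in kidney, with -0.36, -0.50 and -0.39 (-0.41 ± 0.08, adjusted p = 0.00799). Its brain mean was 0.02 ± 0.09, and the liver minus brain difference of -0.56 passed (SE 0.12, adjusted p = 0.0145). The kidney call of Trpc6 was lost without kidney replicate 2 (-0.37).

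Trpc5, a cation channel of neurons, had -0.06, 0.14 and -0.25 in liver, 1.03, 0.46 and 0.79 in kidney (0.76 ± 0.29, SD, n = 3, limma adjusted p = 0.00347) and 0.32, -0.10 and -0.23 in brain. The kidney arrays were the 3 highest, with differences of -0.82 for liver minus kidney (SE 0.19, limma adjusted p = 0.015) and 0.76 for kidney minus brain (SE 0.19, adjusted p = 0.0456). Its near relative Trpc4 had 0.25, 0.44 and 0.23 in liver (0.30 ± 0.12, adjusted p = 0.0496), a call at the edge that ended without any 1 liver array. Trpm7, the channel with its own kinase domain that takes up magnesium, had -0.31, -0.38 and -0.43 in liver (-0.37 ± 0.06, limma adjusted p = 0.0156). The line of probes around Trpm7 had a liver median of -0.46, and with the line and column medians removed the ratio was 0.09 and did not pass. Trpv3, a warmth sensor of skin, had 0.25, 0.36 and 0.60 in liver (0.40 ± 0.18, adjusted p = 0.0316), in a line with a median of 0.33, and was not called with line and column medians removed. Trpm1 was lower in liver (-0.38 ± 0.21, limma adjusted p = 0.0177), also not with those medians removed (-0.06). Trpv4, an osmosensor, passed in no tissue (0.02 ± 0.03 in liver, 0.27 ± 0.35 in kidney and 0.02 ± 0.41 in brain).

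**Figure D3:**
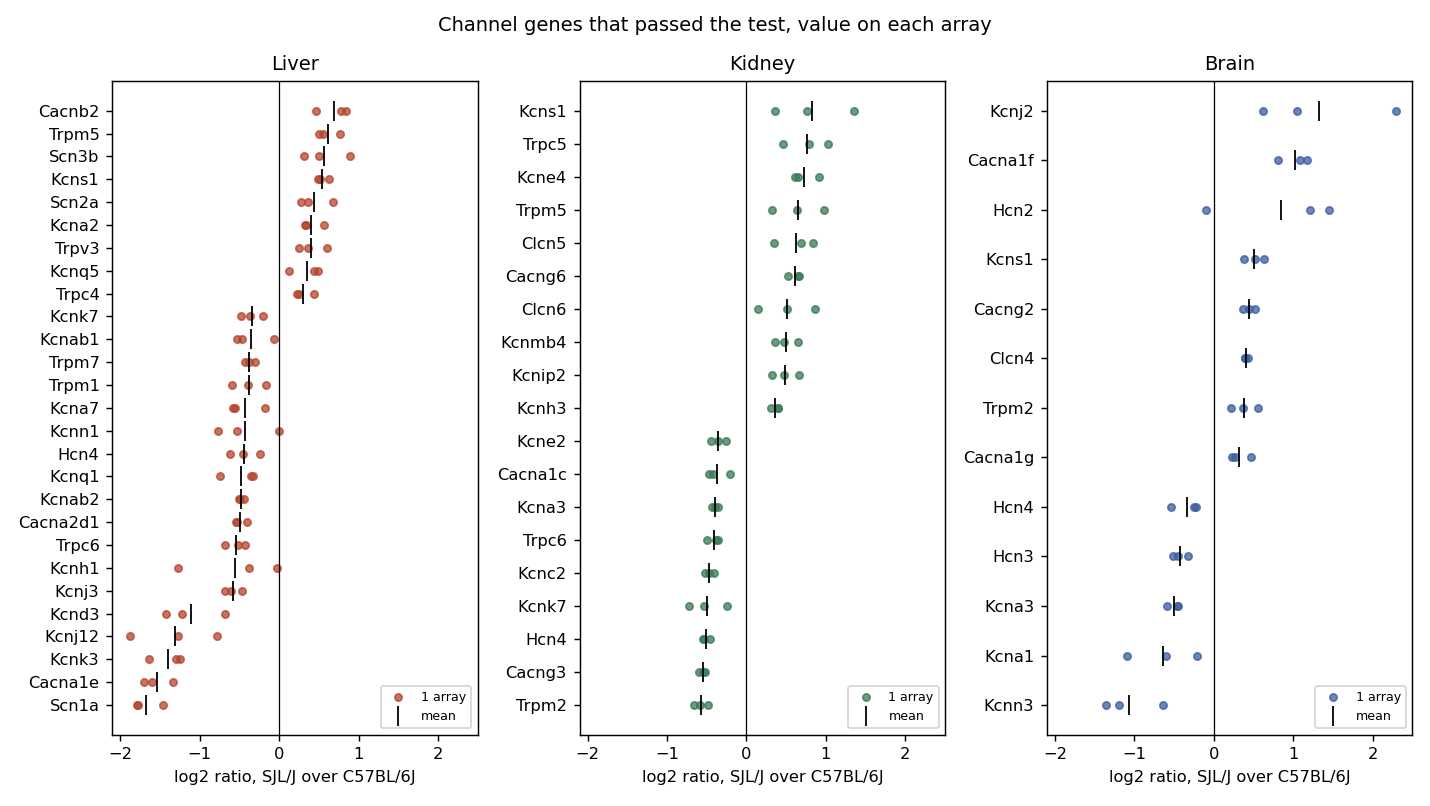
Log2 ratio (SJL/J over C57BL/6J) on each of 3 arrays for the 27 channel genes that passed in liver, 19 in kidney and 13 in brain. Points are arrays and vertical ticks are means; Kcnh1 in liver and Kcnj2 and Hcn2 in brain have widely spread arrays, while Scn1a and Cacna1e in liver do not.

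The strain ratio differed between tissues for 28 members in at least 1 of 3 comparisons. The share of all genes was taken for each comparison but not for this joint count. For liver minus brain 20 passed (18.52%, against 11.4% of all genes). Of these 8 were higher (5.12% of all genes) and 12 lower (6.33% of all genes) in liver. For liver minus kidney 16 passed (14.81%, against 17.7% of all genes), with 4 higher (6.01% of all genes) and 12 lower (11.7% of all genes). For kidney minus brain 5 passed (4.63%, against 4.61% of all genes), 3 higher (3.02% of all genes) and 2 lower (1.59% of all genes). The 3 comparisons share arrays pairwise and are not independent of each other. The liver minus brain count was 13 with line and column medians removed, 7 higher and 6 lower (9.63% of all genes called), and the liver minus kidney split was 8 higher and 7 lower (14.3%). Of these differences 8, 4 and 1 passed under every alternative run: Cacna1e, Cacnb2, Kcna1, Kcna3, Kcnj12, Kcnk3, Kcnn3 and Scn1a for liver minus brain, Cacna1e, Cacnb2, Kcnj12 and Scn1a for liver minus kidney, and Trpm2 for kidney minus brain. These too were counted for the members only. Fewest of the 15 alternatives, 5 to 6, passed the differences of Kcnq1 for liver minus kidney, of Cacng2, Kcnab2 and Kcne1 for liver minus brain, and of Trpc5, Hcn3 and Kcnc1 for kidney minus brain.

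**Figure D4:**
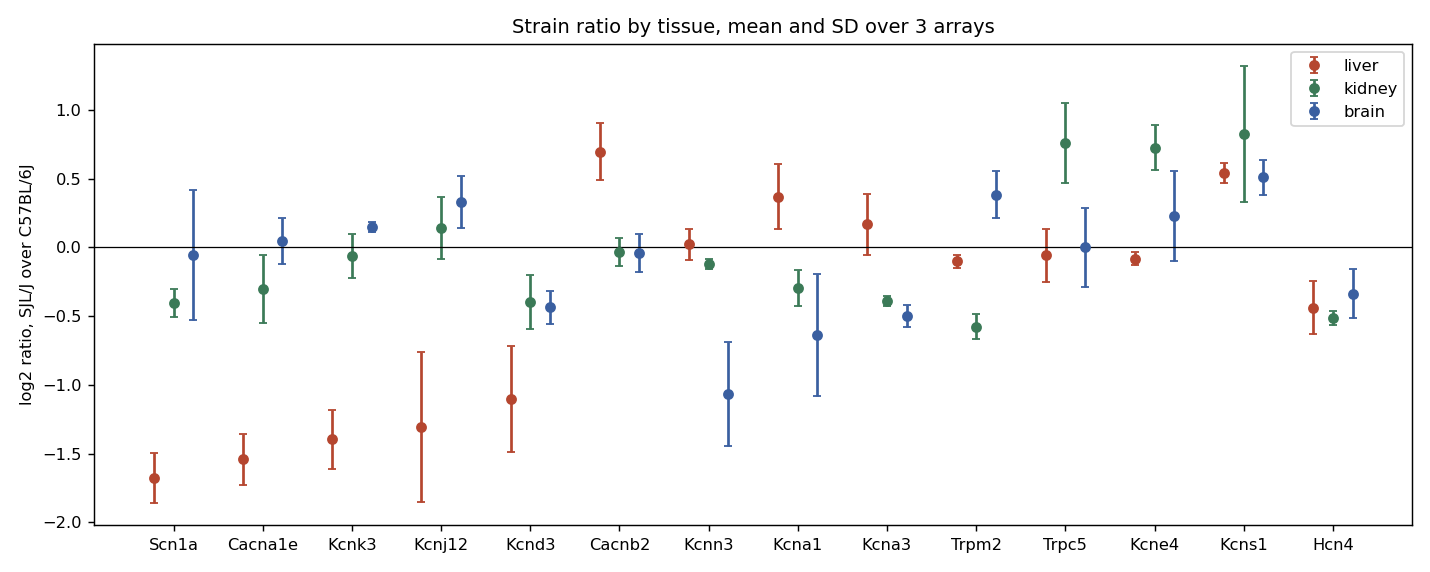
Mean log2 ratio (SJL/J over C57BL/6J) with SD over 3 arrays in liver, kidney and brain for 14 channel genes named in the text. Scn1a, Cacna1e, Kcnk3 and Kcnj12 are lowest in liver, Kcnn3 in brain and Trpm2 in kidney, while Kcns1 is above and Hcn4 below 0 in all 3 tissues.

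The 16 member probes at multiples of 8 lay below 0 almost throughout. In liver 13 of 16 were below 0 (median -0.33), in kidney 16 of 16 (median -0.49) and in brain 15 of 16 (median -0.37), whereas the other 126 member probes had medians of -0.0051, 0.03 and 0.02. All 2880 probes at multiples of 8 had medians of -0.19 in liver, -0.36 in kidney and -0.17 in brain, against 0.03, 0.06 and 0.03 elsewhere. The 12 members known only from such probes are Clcn3, Kcna4, Kcna5, Kcna6, Kcne3, Kcng4, Kcnj1, Kcnj4, Kcnj11, Kcnk16, Kcnmb1 and Kcnn4. Among these Kcne3, a partner of intestinal and other epithelial channels, had -0.49 in liver, -0.54 in kidney and -0.44 in brain. Kcnj1, the secretory channel of the kidney tubule, had -0.14 in liver, -0.23 in kidney and -0.37 in brain. Kcng4, a modifier subunit, was the exception in liver at 0.89, with -0.48 in kidney and -0.02 in brain. Values below 0 at these probes cannot be told apart from their shift, which runs opposite to the liver value of Kcng4.

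A pair of members had a very low probe at a multiple of 8, with a mean far below those of their other probes. Clcn5 had -1.87 ± 0.56 in liver, -1.63 ± 1.52 in kidney and -2.69 ± 0.12 in brain at that probe, against 0.11, 0.62 and 0.15 at its other probe. On kidney replicate 2 the low Clcn5 probe had 0.12, while kidney replicates 1 and 3 had -2.57 and -2.45. Kcnq1 had -1.67 ± 0.38 in liver, -2.59 ± 0.33 in kidney and -2.36 ± 0.30 in brain at its probe at a multiple of 8, and at its 2 other probes -0.60 and -0.35 in liver, -0.11 and 0.12 in kidney and -0.39 and 0.30 in brain. Of the 15 members with several probes at other numbers, 7 had probe means more than 0.5 apart in a tissue: Cacna1a, Cacna1h, Cacnb4, Cacng2, Hcn3, Kcnd1 and Kcnq1.

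The probes of Kcnd1, an A-type pore, gave 0.88 ± 0.58 and -0.48 ± 0.08 in liver, both past the threshold when probes were fitted singly (SD, n = 3, limma adjusted p = 0.00522 and 0.00371), so the mean of 0.20 stands for neither. The second of these probes lies in the same line as Trpm7, whose liver median was -0.46. The brain call of Hcn3 came from 1 of its 2 probes (-0.76 ± 0.25, against -0.10 ± 0.10). For Cacng2 the probes gave -0.24 and 0.77 in kidney and 0.37 and 0.52 in brain. Cacna1a had -0.20 and 0.48 in liver, Cacna1h -0.39 and 0.21 in brain, and the 4 probes of Cacnb4 ran from -0.42 to 0.39 in brain. Which transcripts of a gene each probe detects was not tested.

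**Figure D5:**
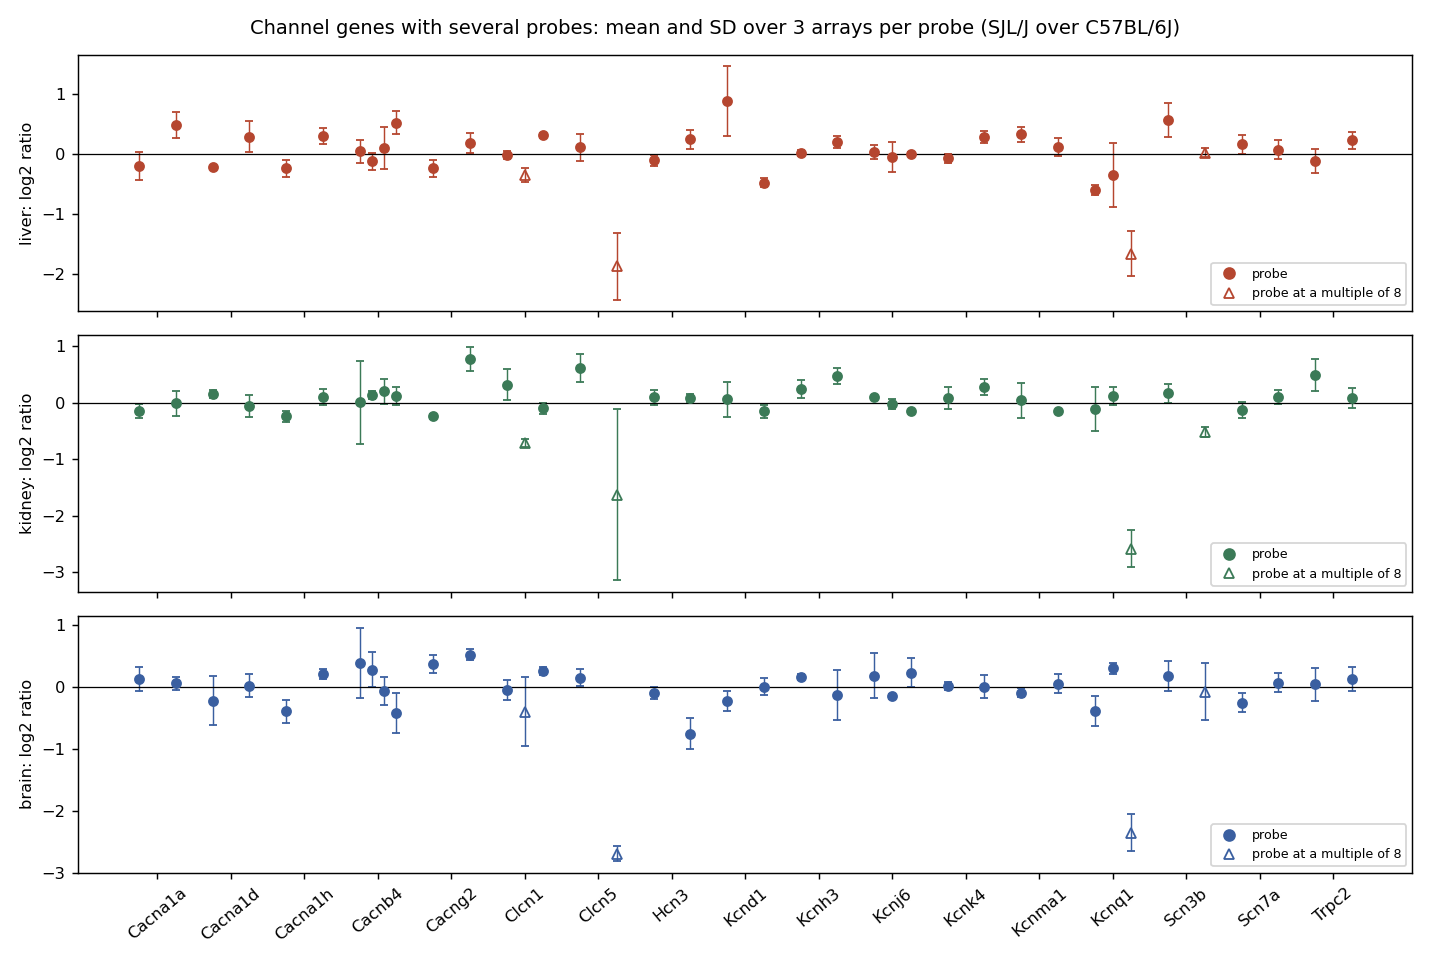
Mean log2 ratio (SJL/J over C57BL/6J) with SD over 3 arrays of each probe of the 17 channel genes with several probes, with rows for liver, kidney and brain. Filled circles are probes at other numbers and open triangles probes at multiples of 8; the triangles of Clcn5 and Kcnq1 lie far below the circles of the same genes in all 3 tissues.

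The remaining 35 members had no value of note by the rule for named genes and are given by range: -0.44 to 0.27 in liver, -0.35 to 0.40 in kidney and -0.29 to 0.28 in brain. Of these 3 passed, all in liver (Kcna7, Kcnab1 and Trpm1), and they were named here after their values were seen. The 3 members that code for no channel subunit had 0.19 to 0.27 in liver, -0.34 to 0.40 in kidney and -0.11 to 0.24 in brain, and 0 passed.

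Other channels and channel partners outside the symbol rule were read from a list of 55 genes, of which 35 were tested. In liver 6 were higher and 2 lower (22.86%, against 22.4% of all genes). In kidney 5 and 1 passed (17.14%, against 22.1%) and in brain 2 and 2 (11.43%, against 14.3%). Their medians were -0.05, -0.01 and -0.035. Ostm1, the partner without which Clcn7 is unstable, had 1.58, 1.20 and 1.06 in kidney (1.28 ± 0.27, SD, n = 3) and 0.39 ± 0.20 in brain, and passed in both, while Clcn7 passed in neither. Abcc8, the sulfonylurea receptor that joins inward rectifiers in pancreatic beta cells and neurons, had -0.94 ± 0.12 in kidney and -0.80 ± 0.58 in brain. Scnn1a, a subunit of the epithelial sodium channel, had -0.34 ± 0.25 in liver and 0.63 ± 0.14 in kidney, with calls in both. The genes of its partner subunits, Scnn1b and Scnn1g, passed in neither (-0.08 and -0.09 in kidney). Fgf13, an intracellular partner of sodium channel pores, had 1.16 ± 0.54 in liver, and its relative Fgf14 had 0.66 ± 0.16 in brain. Cnga3, a cyclic nucleotide-gated channel, had 2.36, 2.69 and 0.16 in liver (1.74 ± 1.37, limma adjusted p = 0.0477). Its brain values of 1.02, 3.06 and -0.56 did not pass. Stk39, a kinase that regulates salt transporters, had 0.63 ± 0.12 in liver. Mcoln1, a lysosomal TRP channel, had -0.63 ± 0.36 in brain.

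Marker genes of the cell types of these tissues were counted beside the shares of all genes called. Those shares were 22.4% in liver, 22.1% in kidney and 14.3% in brain. In liver 6 of 10 tested hepatocyte markers were higher and 1 lower (median 0.60), while 0 of 10 neuron markers passed (median 0.0010). In kidney 3 of 10 tubule markers were higher and 0 lower (median 0.11), 2 of 10 neuron markers were higher and 1 lower, and 1 of 10 hepatocyte markers was lower. In brain 1 of 10 neuron markers was higher and 1 lower (median 0.08), and 0 of 10 glial markers were higher and 1 lower (median 0.06). Of 9 smooth muscle and endothelial markers 1 was lower in liver, 1 higher in kidney, and 1 higher and 1 lower in brain. The part of cell makeup in the channel ratios was not tested.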

How the data were processed

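The deposited table holds 1 normalized log ratio per probe and array for 23040 probes, taken as log2, and per the submitters' processing notes the authors used R 2.0.0 and limma. No source used here states the log base or the sign. The sorted values of all 9 columns are identical (median 0.01, range -3.91 to 5.09), so the arrays had been brought to 1 common distribution, which sets the overall level of each array alike. Spot intensities were not used here.

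Probes were named through the platform annotation, and those with 1 symbol (16874) were kept. Probes of a gene were averaged, without probes at multiples of 8. Means per tissue and their differences were fitted over all 13407 genes and 9 arrays by limma's lmFit and eBayes (version 3.58.1, R 4.3.3, 6 residual degrees of freedom), and p-values were adjusted after Benjamini-Hochberg, with 0.05 as threshold. The fit was tested on simulated data. SDs are over the 3 arrays of a tissue, and SEs are those of the fit. The number of arrays limits the precision.

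The members, lists and tests were chosen with earlier results of these data known. Members were named by rule: up to 10 highest and 10 lowest passed genes per tissue with 1 sign on 3 arrays, genes passed in all 3 tissues or with opposite calls, the highest and lowest of each family, genes with probes more than 0.5 apart, probes at multiples of 8, and genes of known role. From the other lists, up to 4 passed genes per tissue were eligible, and Scnn1b and Scnn1g were added beside Scnn1a. All 120 members matched the RefSeq gene table, which gave neighbouring genes. Promoters came from a separate RefSeq set, which held 138 promoters of 99 members. Alternatives were other probe sets, removal of position medians, array weights, robust eBayes, a replicate block, other centring, single tissues, single probes and leaving out each array. Arrays of the same replicate number did not deviate together (correlations of deviations -0.09 to 0.05), so the numbers do not pair the arrays.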

Additional observations from a re-analysis of the deposited data

Results flagged for a closer look

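The strain ratio of these channel genes differed between tissues by a limma contrast (adjusted p under 0.05 over all 13407 genes), given as differences of log2 ratios. For liver minus brain, the sodium and calcium channel genes had -1.62 (Scn1a), -1.59 (Cacna1e), 0.73 (Cacnb2) and -0.47 (Cacng2). The potassium channel genes had -1.64 (Kcnj12), -1.55 (Kcnk3), -0.72 (Kcnab2), -0.67 (Kcnd3), 0.52 (Kcnq5), 0.53 (Kcne1), 0.67 (Kcna3), 1.01 (Kcna1) and 1.09 (Kcnn3). The remaining ones were Clcn4 (-0.71), Hcn3 (0.50), Trpc4 (0.53), Trpc6 (-0.56), Trpm2 (-0.48) and Trpm7 (-0.52). The Trpm7 difference passed under 7 of 15 alternatives, with values of -0.65 to -0.0026. It was lost with line and column medians removed and without any 1 liver array.

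For liver minus kidney the sodium and calcium channel genes had -1.27 (Scn1a), -1.24 (Cacna1e) and 0.73 (Cacnb2). The potassium channel genes had -1.45 (Kcnj12), -1.34 (Kcnk3), -0.81 (Kcne4), -0.71 (Kcnd3), -0.70 (Kcnmb4), -0.68 (Kcnn1), -0.48 (Kcnq1), 0.56 (Kcna3) and 0.67 (Kcna1), and Clcn6 (-0.64), Trpc5 (-0.82) and Trpm2 (0.48) completed the set. For kidney minus brain they were Trpm2 (-0.96), Kcnc1 (-0.59), Hcn3 (0.52), Trpc5 (0.76) and Kcnn3 (0.95).

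Trpm1 (liver minus brain) and Cacna2d2 (liver minus kidney) also passed but lie outside the rule for named genes. Their names were given after their values were seen.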

How the results depend on the processing

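Leaving out 1 array gave 13 to 16 calls in liver (27 with all arrays), 10 to 11 in kidney (19) and 4 to 16 in brain (13), where 6 remained in number without brain replicate 1, 4 without replicate 2 and 16 without replicate 3. The share of all genes called was then 12.3 to 13.7% in liver, 9.28 to 10.3% in kidney and 4.11 to 18.3% in brain. Leaving out 1 array gave 11 to 16 for liver minus brain (20), 7 to 11 for liver minus kidney (16) and 1 to 9 for kidney minus brain (5), with 6.44 to 13.7%, 9.20 to 11.5% and 1.18 to 15.0% of all genes called. With probes at multiples of 8 kept there were 30 calls in kidney (27.4% of all genes) and 21 in brain (17.2%), from more probes. With array weights (0.31 for brain replicate 3, 0.77 to 1.49 for the others) there were 34 in kidney (36.0% of all genes), 25 for liver minus kidney (27.8%) and 17 for kidney minus brain (16.6%). With line and column medians removed there were 13 for liver minus brain (9.63%). From the arrays of the tissues alone there was 1 in brain (0.589%), 12 for liver minus brain (6.73%) and 1 for kidney minus brain (1.5%). The replicate block, tried although the numbers do not pair the arrays, gave 24, 18 and 11 calls in liver, kidney and brain, 15 for liver minus brain, 15 for liver minus kidney and 2 for kidney minus brain, against 20.6%, 19.7%, 11.6%, 10.2%, 15.1% and 2.78% of all genes. The split of liver calls was 12 higher and 9 lower with line and column medians removed and 9 and 11 with the median of the 10 nearest probes removed, an alternative chosen after seeing the data (9 and 18 as reported). Signs turned for Clcn5 with its probe at a multiple of 8 kept (-0.88 in liver, -0.51 in kidney, -1.27 in brain), for Kcnq1 in kidney likewise (-0.86), for probes fitted singly in Kcnd1 in liver (-0.48) and Cacnb4 in brain (-0.42), and in liver with line and column medians removed for Trpm7 (0.09) and Kcna7 (0.05), Kcna7 also with the median of the 10 nearest probes removed (0.06). Beyond the probes or arrays each setting adds or drops, the cause was not tested. Low signal over background could not be judged without spot intensities.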
